A study of Drosophila melanogaster with 2 samples.

Results

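Promoters annotated in a single direction carried 1969 HmgZ peaks just upstream of the gene's start, 28.8% of the thresholded set, which held 4875 others. A peak was counted here when its summit, the deposited position of highest signal, lay 0 to 250 bp upstream of the nearest annotated transcription start site (TSS). Peaks whose nearest plus-strand and nearest minus-strand TSSs belonged to different genes within 500 bp of each other were left out as divergent promoters. The summit did not have to lie between these TSSs, and the genes did not have to point apart. The choice used position alone, so the positions below are a description, while signal, sequence and gene content were not part of it. The other peaks were 621 downstream of a single-direction TSS, 1414 at divergent promoters and 2840 outside promoters.

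Chromatin immunoprecipitation and sequencing (ChIP-seq) was done on Drosophila melanogaster embryos, whole animals of mixed sex collected at 4 to 24 h, from a transgenic line that stably expresses HmgZ with GFP fused to its C-terminus. All samples formed 1 group of 2 biological replicates, numbered 1 and 3, so no test over samples is possible and shares are given with 95% Wilson intervals that cover counting error only. Both free-text descriptions call the samples input controls, whereas the antibody, assay and peak lists describe HmgZ ChIP, and the age field holds an hour number that no embryo reaches. An untagged control ChIP was not analysed here, read depth is unknown, and in whole embryos a low signal from few cells cannot be told apart from weak binding in many.

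HmgZ is a small HMG-box protein. Proteins of this family bind the minor groove and bend DNA, with little preference for a particular sequence, and are abundant components of chromatin. In Drosophila, promoters of broadly expressed genes often carry the DNA replication-related element (DRE), bound by DREF, or the motif bound by M1BP, whereas many promoters of regulated genes carry a TATA box or an initiator at fixed places around the TSS.

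The promoters of 4 of the strongest peaks are shown first, because their sequences let the summits be placed against the start site. They rank 1, 2, 6 and 7 among the upstream peaks, and those of mRpL41, CG1888 and px, which rank between them, are not printed. Each sequence runs from 250 bases before the TSS to 20 bases from it, 5′ to 3′ on the gene's strand, read from the RefSeq copy of Release 6 (dm6). Capitals mark the summit of the pooled reads with 10 bases to each side. The window of CG14100 is 3L:19590505-19590774 on the minus strand, that of Ugalt is X:2703833-2704102 on the minus strand, that of CG18549 is 3R:12449046-12449315 on the plus strand and that of Gapdh2 is X:15867895-15868164 on the plus strand.
CG14100: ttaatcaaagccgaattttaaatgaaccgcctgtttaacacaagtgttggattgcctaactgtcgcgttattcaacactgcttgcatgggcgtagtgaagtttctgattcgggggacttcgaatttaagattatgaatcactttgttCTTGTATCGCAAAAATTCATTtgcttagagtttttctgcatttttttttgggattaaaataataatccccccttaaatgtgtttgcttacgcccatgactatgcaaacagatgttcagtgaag
Ugalt: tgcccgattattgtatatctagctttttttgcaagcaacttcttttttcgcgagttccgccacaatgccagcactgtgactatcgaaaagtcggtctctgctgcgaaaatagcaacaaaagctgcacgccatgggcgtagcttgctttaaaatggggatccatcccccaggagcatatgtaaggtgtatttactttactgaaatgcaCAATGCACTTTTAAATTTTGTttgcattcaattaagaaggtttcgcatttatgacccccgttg
CG18549: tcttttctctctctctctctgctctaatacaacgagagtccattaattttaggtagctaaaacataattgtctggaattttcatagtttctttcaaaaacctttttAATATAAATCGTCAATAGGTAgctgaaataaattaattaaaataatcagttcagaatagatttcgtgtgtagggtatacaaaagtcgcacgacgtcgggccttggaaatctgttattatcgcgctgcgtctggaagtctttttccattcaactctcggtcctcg
Gapdh2: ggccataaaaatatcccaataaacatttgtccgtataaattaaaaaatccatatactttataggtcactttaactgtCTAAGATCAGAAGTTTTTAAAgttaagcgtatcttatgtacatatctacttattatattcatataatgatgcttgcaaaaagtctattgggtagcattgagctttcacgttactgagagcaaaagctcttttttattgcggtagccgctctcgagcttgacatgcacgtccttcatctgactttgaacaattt
The summits of CG14100, CG18549 and Gapdh2 lay at -93, -134 and -163 bp from the TSS, well before the place of a TATA box, and that of Ugalt lay at -33 bp.

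A second set shows the sequence elements on which the comparison of promoters turns, with the element in capitals. Jwa (2L:18705684-18705953, minus strand) and eEF1gamma (3R:29219922-29220191, plus strand), which encodes a translation elongation factor subunit, carry a DRE, and CG1142 (3R:7473762-7474031, minus strand) carries the M1BP core. Rtnl1 (2L:4997362-4997631, minus strand), a reticulon that shapes the endoplasmic reticulum, carries the core of the insulator protein CTCF. Each is among the strongest upstream peaks that hold its element.
Jwa: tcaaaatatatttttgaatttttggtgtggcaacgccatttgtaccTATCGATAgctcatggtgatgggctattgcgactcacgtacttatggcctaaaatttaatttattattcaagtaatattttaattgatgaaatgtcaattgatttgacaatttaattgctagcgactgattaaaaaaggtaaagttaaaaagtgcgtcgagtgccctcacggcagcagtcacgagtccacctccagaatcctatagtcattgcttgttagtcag
eEF1gamma: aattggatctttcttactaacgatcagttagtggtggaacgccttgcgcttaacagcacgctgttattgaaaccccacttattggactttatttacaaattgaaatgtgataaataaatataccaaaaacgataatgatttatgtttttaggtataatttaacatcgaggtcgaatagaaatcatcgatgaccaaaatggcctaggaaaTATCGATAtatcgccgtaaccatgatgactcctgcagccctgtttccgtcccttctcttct
CG1142: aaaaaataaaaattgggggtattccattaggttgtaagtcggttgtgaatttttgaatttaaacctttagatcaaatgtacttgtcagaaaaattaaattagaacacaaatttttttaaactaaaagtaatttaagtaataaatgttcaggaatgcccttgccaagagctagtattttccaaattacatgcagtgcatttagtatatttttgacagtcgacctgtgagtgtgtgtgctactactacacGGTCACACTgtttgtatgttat
Rtnl1: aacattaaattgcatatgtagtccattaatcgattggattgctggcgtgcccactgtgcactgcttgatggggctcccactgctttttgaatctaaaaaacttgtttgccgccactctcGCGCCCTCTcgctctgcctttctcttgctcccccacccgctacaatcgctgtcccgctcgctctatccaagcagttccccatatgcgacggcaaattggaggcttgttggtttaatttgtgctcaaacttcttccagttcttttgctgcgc
With the TSS base counted as 0, the DRE of eEF1gamma began at -41 and its summit lay at -32 bp, so the element ended next to the summit. The M1BP core of CG1142 began at -2, on the start site itself, whereas the summit lay at -153 bp. The DRE of Jwa began at -204 and its summit lay at -100 bp. The CTCF core of Rtnl1 is on the strand opposite to the gene, began at -131 and stood apart from the summit at -241 bp. Of these promoters, that of eEF1gamma alone had its element beside the summit.

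Nearly all of the upstream peaks were found in both replicates, which the choice of the set favours. The thresholded set had already been selected for reproducibility between replicates (irreproducible discovery rate). Each replicate's own list is also long, at 30000 regions. The shares below are therefore a description and not separate evidence of replication. A region of the replicate's own list had its summit within 100 bp of the peak's summit for 96.9% of the 1969 in replicate 1 and for 97.3% in replicate 3. Both replicates held 1855 of them (94.2%, 93.1 to 95.2), against 94.1% of all thresholded peaks, so the share was at the level of the whole set. The 114 that were missing in a replicate had a median pooled signal of 158, against 204 for those found in both. The replicates' summits for the same peak were 22 bp apart at the median.

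Summits crowded towards the start site. The median position was -72 bp (quartiles -135 and -35; SD 65.7, n = 1969 peaks) with pooled reads, -72 bp in replicate 1 (n = 1908) and -76 bp in replicate 3 (n = 1915). The first 25 bp upstream held 354 peaks and the next 25 held 353. The count then fell in each step to 136 between 126 and 150 bp, rose slightly to 143 between 151 and 175 bp, and reached 65 between 226 and 250 bp. Placed by the replicate's own summit, 92.1% remained 0 to 250 bp upstream in replicate 1 and 94.1% in replicate 3, while 133 and 81 moved to the downstream side. The position is therefore resolved no more finely than the gap between the replicates' summits, and the smallest distances include peaks that either side could claim.

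Peaks farther upstream were the stronger ones. Signal is the deposited value of the region in a replicate's list divided by the median of that list of 30000 regions, since the scale differs between lists. It rose from a median of 2.74 in replicate 1 and 3.06 in replicate 3 within 25 bp of the TSS to 3.43 and 4.17 at 126 to 150 bp. Between 226 and 250 bp replicate 3 stayed high at 4.20 and replicate 1 was lower again at 3.03. The far tail of the signal moved more than the median. Among peaks 0 to 75 bp upstream 24 of 1016 (2.36%, 1.59 to 3.49) were in the 500 strongest of all peaks by pooled signal, against 50 of 542 (9.23%, 7.07 to 12.0) at 76 to 150 bp and 75 of 411 (18.2%, 14.8 to 22.3) at 151 to 250 bp. The 3 intervals do not overlap. Over all thresholded peaks the 500 strongest are 7.31%, and over the upstream peaks they were 149 (7.57%).

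**Figure D1:**
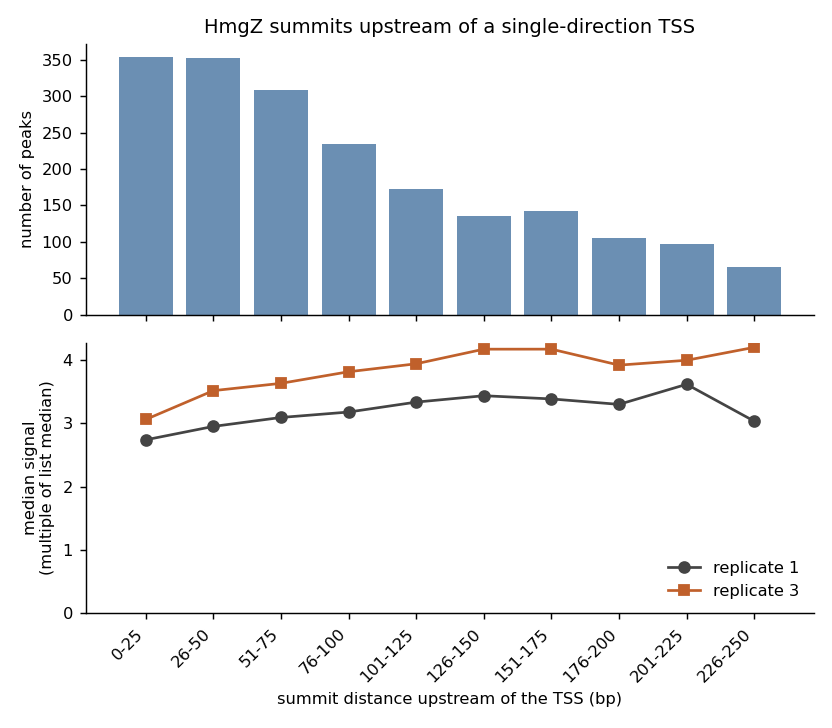
Number of upstream peaks (top) and their median signal as a multiple of the list median in replicate 1 (circles) and replicate 3 (squares, bottom), by distance of the pooled summit from the TSS in bp. Peak number falls from 354 in the first bin to 65 in the last, while the median signal of replicate 3 rises from 3.06 to 4.20.

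At the limits of the rule the peaks just inside and just outside were much alike. The 65 peaks at 226 to 250 bp had medians of 3.03 in replicate 1 and 4.20 in replicate 3, and the 60 at 251 to 275 bp had 3.05 and 4.29. The 344 peaks 0 to 24 bp upstream had 2.73 and 3.03, and the 207 peaks 1 to 25 bp downstream had 2.97 and 2.89. Where the nearest TSSs on the opposite strands lay 501 to 550 bp apart, 67 peaks were kept with medians of 2.90 and 3.71. The 66 left out at 451 to 500 bp had 3.24 and 3.82.

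The strongest upstream peaks stood at genes of varied function. CG14100 (3L:19590419-19590813) had 39.6 times the list median in replicate 1 and 70.0 times in replicate 3. Ugalt (X:2703692-2704088), a UDP-galactose transporter of the Golgi, had 36.3 and 50.3, and mRpL41 (2R:15217584-15217938), a protein of the large mitochondrial ribosomal subunit, had 27.4 and 50.7. These 3 were each higher in replicate 3, and their replicates differed by more than those of the genes that follow. Gapdh2 (X:15867786-15868170), a glycolytic enzyme, had 26.3 and 25.02. The peak of px (2R:22514123-22514466), named plexus for its wing vein phenotype, had 30.8 and 27.7. PNPase, a ribonuclease of mitochondria, and Atf3, a bZIP transcription factor, had 22.6 and 29.8, and 18.2 and 29.4. CG1888, CG18549, Tina-1 and CG1635, also among the 12 strongest, ranged from 24.2 to 28.9 in replicate 1 and from 25.7 to 34.2 in replicate 3. Of the genes named here, Ugalt had its summit nearest the TSS and CG1888 the farthest, at -229 bp.

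As a class, upstream peaks lay between downstream and divergent peaks in median signal. The upstream peaks ranged from 0.668 to 39.6 times the list median in replicate 1, with a median of 3.07 (quartiles 2.34 and 4.22), and from 0.619 to 70.0 in replicate 3, with a median of 3.63 (2.69 and 5.12). Downstream peaks had medians of 2.94 and 2.64, and divergent promoters had 3.12 and 4.22. Peaks outside promoters had 2.84 and 3.25. This order held in both replicates, by small differences in replicate 1, whereas the place of peaks outside promoters differed between the replicates.

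**Figure D2:**
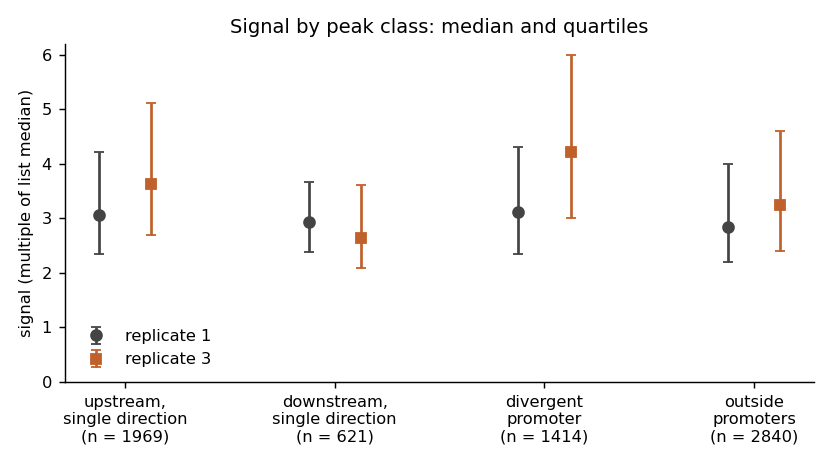
Signal as a multiple of the list median for 4 classes of peaks, with the median (symbol) and quartiles (bars) over peaks in replicate 1 (circles) and replicate 3 (squares). In replicate 1 the medians span 2.84 to 3.12, and in replicate 3 they span 2.64 to 4.22.

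The ratio between the replicates differed between the classes, as did base composition. For peaks found in both, the ratio of replicate 3 to replicate 1 had a median of 1.197 for upstream peaks, with 68.7% higher in replicate 3. It was 0.936 for downstream peaks, 1.35 for divergent peaks and 1.14 for peaks outside promoters. The median G+C content within 100 bp of the summit was 39.3% for upstream, 45.8% for downstream, 36.8% for divergent and 37.8% for outside peaks, so the ratio did not follow G+C over all 4 classes. Among the upstream peaks the ratio went from 1.30 in the fourth of the peaks with lowest G+C through 1.22 and 1.19 to 1.05 in the highest. Among peaks with 38 to 42% G+C it was 1.21 for 344 upstream, 0.999 for 93 downstream, 1.26 for 231 divergent and 1.13 for 456 outside peaks, and the classes still differed. The part of base composition in the differences between classes was not tested further.

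The upstream peaks belonged to 1961 distinct TSSs of 1869 genes. Protein-coding genes accounted for 1890 peaks (96.0%) and for 1793 of the 13945 annotated ones (12.9%). Plus-strand genes had 964 of the peaks and minus-strand genes 1005. Genes with such a peak were longer and had more start sites. Their median length was 4093 bp, against 1863 bp for protein-coding genes without any peak within 250 bp of a TSS, and 54.7% had a single TSS, against 79.5%. A gene with more start sites also offers more windows for a peak, so the number of TSSs and the chance of a peak cannot be told apart here.

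Most summits lay over no gene at all. The rule itself, which places summits upstream of a TSS, favours this, and the same shares were not taken at promoters without a peak. Of the 1969 summits, 1305 (66.3%, 64.2 to 68.3) were over no annotated gene, 448 (22.8%) were over another transcript of the same gene and 216 (10.97%) were over another gene. Of those 216, 152 were in an intron, 37 in a 3′ UTR and 1 in a coding exon. As a partial background, another gene overlapped the base before the TSS for 10.4% (9.09 to 11.8) of upstream peaks. That share was 16.5% of single-direction protein-coding TSSs and 18.1% (17.4 to 18.8) of those without a peak. The summits over the same gene stood farther from the TSS, at a median of -99 bp against -64 bp over no gene. They were also among the 500 strongest peaks more often, with 49 of 448 (10.9%, 8.37 to 14.2) against 79 of 1305 (6.05%, 4.88 to 7.48). Those intervals do not overlap, whereas the median signals of 3.19 and 3.05 in replicate 1 and 3.46 and 3.69 in replicate 3 went in opposite directions.

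The gene next upstream mostly pointed the same way. The neighbour was in tandem, with its 3′ end towards the promoter, for 1120 of the 1969 peaks (56.9%, 54.7 to 59.1), against 48.1% of 14521 single-direction protein-coding TSSs and 46.2% (45.3 to 47.1) of those without a peak. Downstream peaks had a tandem neighbour in 51.7% (47.8 to 55.6), an interval that overlaps that of the upstream peaks. The tandem neighbours of upstream peaks were closer than where no peak was present. The gap from the TSS to the neighbour's 3′ end had a median of 428.5 bp, against 1008 bp where no peak was present. Of the 1120 gaps 643 (57.4%) were 500 bp or less, against 34.2%. For a TSS inside its own gene the gap includes part of that gene. Summits over another transcript of the same gene were 157 of 477 with gaps over 500 bp, against 48 of 643. Downstream peaks had gaps at least as short, with a median of 368 bp and 62.3% within 500 bp. AlaRS, the alanyl-tRNA synthetase gene, lay 56 bp from the end of CG13392, RpS29 lay 98 bp from topi, and Rab1, a Rab GTPase of early secretion, lay 148 bp from AP-2sigma. With gaps up to 250 bp the summits were nearest the TSS, at a median of -45 bp, and with gaps over 5000 bp they were at -128 bp. The part of the room before the neighbour's end in this order was not tested.

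Promoters with an upstream peak differed in sequence from single-direction promoters without one. Motifs were searched on both strands in the 300 bases from 250 before to 50 from the TSS, once for each of the 1961 TSSs, and compared with 11517 single-direction protein-coding promoters that had no peak. The DRE (TATCGATA) was in 250 of the 1961 (12.7%, 11.3 to 14.3), against 3.34% (3.03 to 3.69) without a peak and 7.98% of all 19253 protein-coding promoters. The M1BP core (GGTCACACT) was in 195 (9.94%, 8.70 to 11.3), against 1.69% (1.47 to 1.95) without a peak and 5.23% of all. Both elements of broadly expressed genes were thus held several times as often where a peak was present. They were not set apart from downstream peaks, at 11.5% (9.19 to 14.2) and 10.7% (8.47 to 13.3), and the DRE was more frequent still at divergent peaks, at 20.4% (18.3 to 22.6).

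Related elements went the same way. The insulator motif of BEAF-32 (CGATA, which is also part of the DRE) was in 55.2% (53.0 to 57.4), against 37.2% without a peak and 45.7% of all promoters. Ohler motif 7 and Ohler motif 6, core promoter elements of Drosophila found by computational search, were in 13.1% and 2.55%, against 4.10% and 0.781% without a peak and 8.59% and 1.93% of all. The E-box (CAGCTG) was in 20.9%, against 14.2% and 17.9%. The CTCF core (AGNNGGCGC) was in 4.39% (3.56 to 5.38), against 2.74% (2.46 to 3.06) and 2.89%. Each of these intervals lay above that of promoters without a peak. That of Ohler motif 6 (1.94 to 3.35) overlapped that of all promoters. These elements were not set apart from downstream peaks, whose intervals overlapped in each case. At downstream and divergent peaks BEAF-32 was in 50.6% and 65.2%, and Ohler motif 7 in 10.5% and 21.6%. Ohler motif 6 was in 4.20% and 4.26%, the E-box in 20.4% and 27.0%, and the CTCF core in 4.20% and 3.12%.

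Of the other elements, GAGA and the motif of Zelda were near or below promoters without a peak, and Sox and a run of A were slightly above them. GAGA (GAGAG, bound by GAGA factor) was in 35.03% (33.0 to 37.2), against 36.03% without a peak and 33.1% of all promoters. The motif of Zelda (CAGGTAG), which opens chromatin in the earliest embryo, was in 16 promoters (0.816%, 0.503 to 1.32), against 2.04% (1.80 to 2.32) and 1.69%. The Sox motif (AACAAT), a target of sequence-specific HMG-box proteins, was in 31.9% (29.8 to 34.0), against 28.5% (27.7 to 29.3) and 30.5%. A run of A (AAAAAA) was in 51.8% (49.6 to 54.0), against 46.4% (45.5 to 47.3) and 49.4%. Both intervals lay above that of promoters without a peak, by a few percentage points, and both shares were near that of all. The G+C content of the whole window was 39.7% with an upstream peak and 41.1% without a peak.

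**Figure D3:**
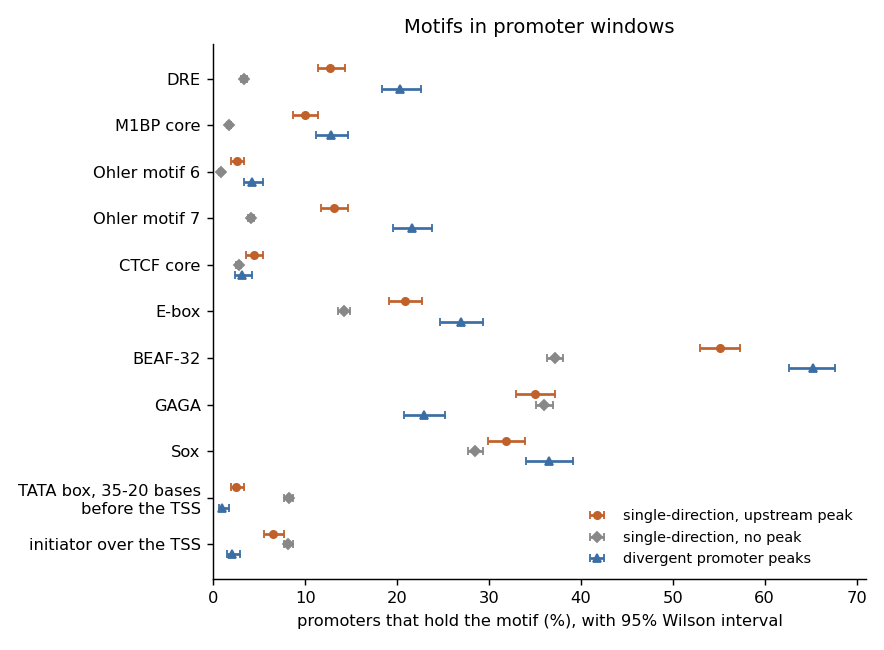
Share of promoters that hold each motif, in percent with 95% Wilson intervals, for promoters with an upstream peak (circles), single-direction promoters without a peak (diamonds) and divergent promoters with a peak (triangles). The DRE is in 12.7% with an upstream peak and in 3.34% without, and the correctly placed TATA box in 2.50% and 8.20%.

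TATA boxes differed by place. Its letters (TATAAA) occurred anywhere in the window in 38.8% of promoters with an upstream peak (36.7 to 41.0), against 41.2% without a peak and 42.2% of all promoters. At 35 to 20 bases before the TSS, where a TATA box works, they were in 49 (2.50%, 1.90 to 3.29), against 944 (8.20%, 7.71 to 8.71) without a peak and 6.22% of all promoters. Downstream peaks were also low, at 3.23% (2.10 to 4.94). The initiator letters (TCAGT) were in 48.1% (45.9 to 50.4) of the windows, against 55.7% and 52.1%, and lay over the TSS itself in 6.48% (5.47 to 7.65), against 8.14% (7.66 to 8.66) without a peak and 6.53% (6.19 to 6.89) of all promoters, so the placed initiator was at the level of all promoters. Placed TATA boxes were rarer with an upstream peak than without one, and the letters farther upstream were not. In promoters with an upstream peak there were 8.36 matches per 100 promoters at 200 to 176 bases before the TSS, against 5.42 without a peak, while at 50 to 26 bases before it there were 2.91 and 10.7.

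The DRE and the M1BP core were also placed differently. The DRE was most frequent at 50 to 26 bases before the TSS, with 3.06 matches per 100 promoters with an upstream peak and 0.825 without a peak. The M1BP core peaked in the first 25 bases from the TSS, with 3.67 and 0.686. In both sets of promoters each element kept its own place, and the sets differed in how many promoters held it. Of the promoters' DRE matches nearest the summit, 36.7% lay within 30 bp of it, against 25.5% for the M1BP core, 43.3% for BEAF-32 and 19.7% for the TATA box. These shares also depend on the range of summit positions that the rule allows.

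**Figure D4:**
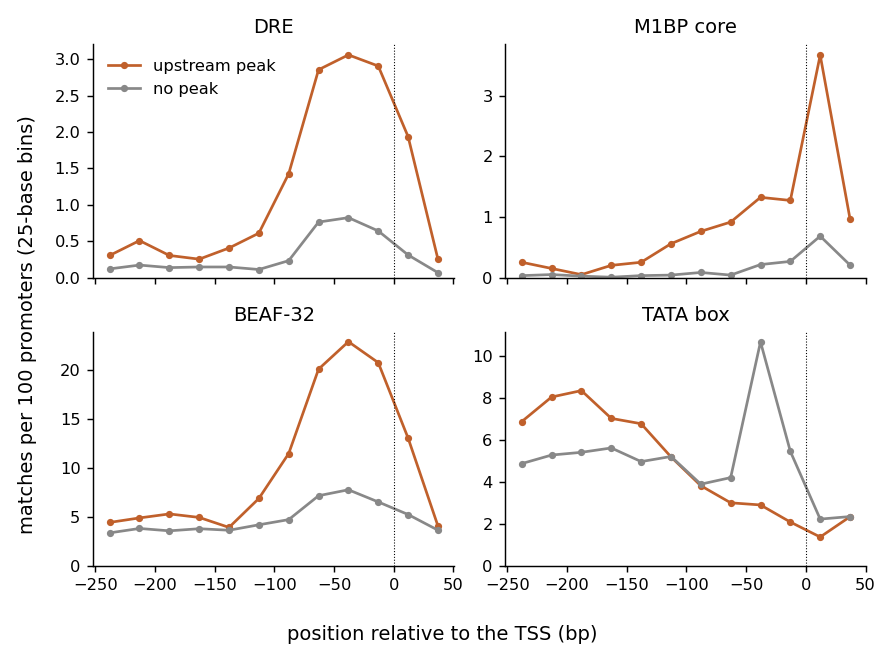
Matches per 100 promoters in bins of 25 bases by position from the TSS (dotted line), for promoters with an upstream peak (dark) and single-direction promoters without a peak (grey). The TATA box reaches 10.7 just before the TSS without a peak and 2.91 with one, while the DRE reaches 0.825 and 3.06.

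Peaks near the TSS and peaks far from it lay in different kinds of promoter. The DRE was in 16.9% (14.7 to 19.4) of promoters with the summit 0 to 75 bp upstream, in 11.6% (9.19 to 14.6) at 76 to 150 bp and in 3.89% (2.41 to 6.23) at 151 to 250 bp. The M1BP core fell likewise from 13.7% (11.7 to 15.9) through 7.01% to 4.62% (2.98 to 7.11), and BEAF-32 from 62.5% to 37.7%. GAGA went the other way, from 26.3% (23.7 to 29.1) through 37.6% to 53.3% (48.5 to 58.1), as did the initiator letters, from 43.4% to 59.6%. The near peaks thus had the higher shares of the DRE and M1BP elements and the far peaks those of GAGA and the initiator. Where the summit lay over another transcript of the same gene the DRE was in 5.36% (3.63 to 7.85) and GAGA in 49.8% (45.2 to 54.4), against 16.2% (14.3 to 18.3) and 28.6% (26.2 to 31.1) over no gene. In tandem promoters with a gap of at most 500 bp the DRE was in 18.8% (15.99 to 22.02) and GAGA in 21.8% (18.8 to 25.1). With wider gaps they were in 10.1% and 47.0%. Wider gaps more often had the summit over the same gene, as given above, and the part of this was not tested.

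These elements did not go with a higher typical signal. Peaks with a DRE had medians of 3.09 in replicate 1 and 3.52 in replicate 3, and those without had 3.07 and 3.65. For the M1BP core the medians were 3.07 and 3.77 with it, and 3.07 and 3.63 without. The groups parted among the strongest peaks. Of the peaks with a DRE 10 (3.98%, 2.18 to 7.18) were among the 500 strongest, against 8.09% (6.89 to 9.48) without, and of those with an M1BP core 4 (2.04%, 0.796 to 5.13) against 8.18% (6.99 to 9.55). With GAGA it was 10.1% (8.11 to 12.6), against 6.18% (4.98 to 7.63). The first pair of intervals overlap and the other pairs do not. Distance moves with both measures, as given above, and its part in these shares was not tested. Among the strongest with a DRE were Alg3, a mannosyltransferase of protein glycosylation, at 12.2 in replicate 1 and 15.3 in replicate 3, and CG1827 at 10.6 and 13.2. CG1142 and CG6966, the strongest with an M1BP core, had 11.9 and 16.6, and 11.4 and 13.8.

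The share of genes with an upstream peak varied widely between gene lists, also among those with basic cellular roles. Shares are of all members of a list, beside the 12.9% of all protein-coding genes, and no test of a list was made. Among the 91 cytoplasmic ribosomal protein genes 26 had one (28.6%, 20.3 to 38.6), while 12 had a downstream and 24 a divergent peak. Over all protein-coding genes 4.14% had a downstream and 9.64% a divergent peak, each counted for the gene of the nearest TSS. The ribosomal protein genes thus exceeded the background in all 3 classes. RpL23A had 12.1 in replicate 1 and 13.5 in replicate 3, RpL30 had 11.3 and 8.86, and RpS29, with a DRE, had 7.89 and 9.43. The median summit of the list was at -35.5 bp, at -19 bp in replicate 1 and -49 bp in replicate 3, closer to the TSS than the -72 bp of all upstream peaks. Of the 26, 2 held the M1BP core and 7 a DRE, beside shares of 9.94% and 12.7% over all promoters with an upstream peak.

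The translation factor and proteasome lists had their summits about as near the TSS as the cytoplasmic ribosomal proteins. Translation factors had upstream peaks at 17 of 54 genes (31.5%, 20.7 to 44.7), with a median at -35.5 bp. Of their 18 peaks 6 had a DRE, among them those of eEF1gamma, at 7.43 and 10.8, eIF2A, at 7.88 and 7.79, and eIF3c, a subunit of the scaffold that loads the small ribosomal subunit, at 6.05 and 7.89. The proteasome had 10 of 35 (28.6%, 16.3 to 45.1), at -36 bp, with Rpn10, its ubiquitin receptor, at 4.27 and 7.67. The respiratory chain had 17 of 88 (19.3%, 12.4 to 28.8), at -42 bp, with ATPsynC, the rotor ring of the ATP synthase, at 6.39 and 6.28 and blw, its alpha subunit, at 5.31 and 7.72. Mitochondrial ribosomal proteins had 7 of 75 (9.33%, 4.59 to 18.0), with a median at -97 bp, and aminoacyl-tRNA synthetases had 3 of 31 (9.68%, 3.35 to 24.9), at -45 bp. Of the mitochondrial ribosomal protein genes 16 had a divergent peak, against 9.64% of all protein-coding genes. A divergent peak was counted for the gene of its nearest TSS alone. With any peak within 250 bp of a TSS counted, 50 of the 75 mitochondrial ribosomal protein genes and 19 of the 31 synthetase genes had one. That share was 32.8% over all protein-coding genes, so both lists were above it.

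Cell cycle and chromatin genes had upstream peaks too. Of 38 cell cycle genes 14 had one (36.8%, 23.4 to 52.7), the largest share of the 21 lists, with a median at -80 bp. Dp, the partner of E2F, had 5.85 in replicate 1 and 11.1 in replicate 3, polo, a mitotic kinase, had 4.58 and 7.30, and Wee1, an inhibitory kinase of Cdk1, had 5.81 and 4.55. The Polycomb group, which keeps genes silent, had 6 of 18 (33.3%, 16.3 to 56.3), with esc, a subunit of the histone methyltransferase complex, at 3.22 and 6.07. The Trithorax group, which keeps genes active, had 5 of 17 (29.4%, 13.3 to 53.1), with tna at 6.07 and 4.18 and kis, a chromatin remodeller, at 2.78 and 5.01. Insulator proteins had 2 of 12 (16.7%), mod(mdg4) and ZIPIC. The lower bounds of these 3 chromatin lists were between 4.70% and 16.3%.

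The HMG-box and segmentation lists had median summits farther from the TSS than the upstream peaks as a whole. HMG-box genes had upstream peaks at 5 of 20 (25%, 11.2 to 46.9), with a median at -182 bp over 7 peaks, 3 of them of bbx, whose summits ranged from -213 to -14 bp. That of HmgZ itself (2R:21704375-21704986) had 18.9 in replicate 1 and 18.1 in replicate 3 and lay at -226 bp over another gene of the other strand. The line expresses a tagged copy of this gene, and whether that copy adds reads there was not tested. Bbx, another HMG-box gene, had 13.3 and 17.5 at its strongest peak, and Hmg-2 had 6.21 and 7.11. Segmentation genes had 6 of 23 (26.1%, 12.5 to 46.5), at -134 bp, with nkd, an antagonist of Wnt signalling, at 5.48 and 5.27, bcd, the anterior morphogen, at 3.51 and 4.36, and cad at 3.68 and 3.34. Of the 6, 0 had a DRE and 0 an M1BP core, a count too small to set against the 12.7% and 9.94% of all upstream peaks. Of 8 Hox genes 2 had one, lab at 2.28 and 3.41, with its summit at -49 bp, and Dfd, found in replicate 3 alone, at 2.76.

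Cuticle and chemoreceptor genes had almost none. Cuticle proteins had 0 of 122 (upper limit 3.05%), and chemoreceptors and odorant-binding proteins had 1 of 231 (0.433%, 0.0765 to 2.41), Obp99b, with 1.48 in replicate 1 and 3.70 in replicate 3 at -247 bp, 3 bp from the limit of the rule. Muscle structure and neuronal function could not be told from the background for upstream peaks. Muscle structure had 2 of 24 (8.33%, 2.32 to 25.8), Tm1, a tropomyosin, at 4.21 and 6.00 and Zasp52, a Z-disc protein, at 3.28 and 3.05. Neuronal function had 2 of 18 (11.1%, 3.10 to 32.8), Nrx-1, a synaptic adhesion protein, at 6.41 and 6.45 and Csp, a synaptic vesicle chaperone, at 3.11 and 1.71. V-ATPase had 6 of 33, the spliceosome 5 of 31, Mediator 4 of 29 and Rab GTPases 3 of 28. These shares lay between 10.7% and 18.2%, around the background for upstream peaks. With any peak within 250 bp of a TSS counted, V-ATPase had 16, the spliceosome 23, Mediator 19 and Rab GTPases 13. Muscle structure had the same 2 of 24 by that count, and neuronal function had 4 of 18. Over all protein-coding genes that share was 32.8%, which lies above the interval of muscle structure.

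**Figure D5:**
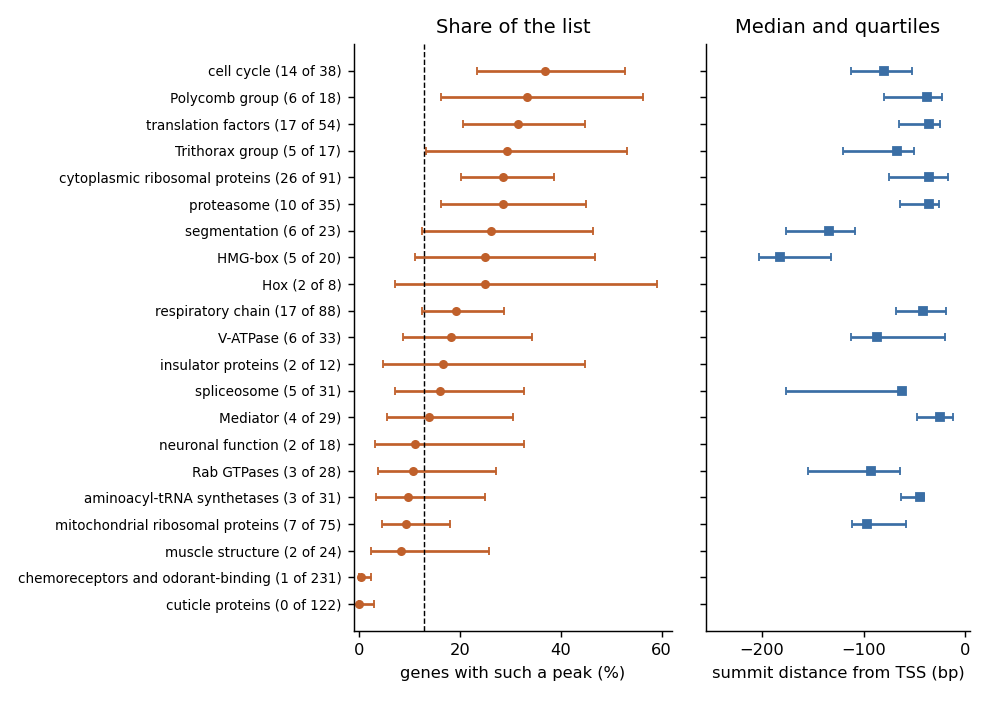
Share of each gene list with an upstream peak, in percent with 95% Wilson intervals (left, dashed line at the 12.9% of all protein-coding genes), and the median and quartiles of the summit's distance from the TSS in bp for lists with 3 or more peaks (right). The cytoplasmic ribosomal, translation factor and proteasome lists have medians of -35.5 to -36 bp, the mitochondrial ribosomal list -97 bp and the HMG-box list -182 bp.

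A few genes had several upstream peaks. There were 1777 genes with 1 such peak, 85 with 2, 6 with 3 and 1 with 4. The gene with 4 was Rtnl1. Its peaks had 13.4 in replicate 1 and 21.0 in replicate 3 at 2L:4997446-4997829, 8.50 and 11.03 at 2L:5005016-5005286, 5.47 and 6.06 at 2L:5009685-5009858 and 4.83 and 4.87 at 2L:5000309-5000712. Each was at least as high in replicate 3, and the summits lay at -241, -238, -65 and -141 bp from their own TSSs. Ptpmeg2, a tyrosine phosphatase, had 3 peaks, with 15.3 and 16.7, 8.45 and 8.06, and 6.68 and 5.39. The start sites of 1 gene thus differed in signal by more than the replicates did at any of them. Hnf4, a nuclear receptor, had 3 peaks of 3.47 and 4.37, 1.82 and 3.67, and 5.62 and 0.756. The last of these differed between replicates by more than the peaks of the gene differed from each other in replicate 3. The others with 3 were bbx, Sarm, Eip63F-1 and lncRNA:CR43650, of whose peaks 2 belonged to the same TSS.

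The share of upstream peaks differed modestly between the large arms. They were 360 on 2L, 435 on 2R, 366 on 3L, 488 on 3R and 302 on X, from 26.0% (23.8 to 28.4) of the peaks on 3L to 31.6% (29.2 to 34.1) on 2R, intervals that do not overlap. On chromosome 4, which is largely heterochromatic in character, they were 18 of 41 (43.9%, 29.9 to 59.0). There 17 of 80 protein-coding genes had one (21.3%, 13.7 to 31.4), against 12.2% to 13.8% on the other arms. The medians of these 18 were 2.53 in replicate 1 and 4.52 in replicate 3, lower than those of the other arms in replicate 1 and higher in replicate 3, so the replicates do not give chromosome 4 the same place.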

How the data were processed

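The deposited lists, of which the thresholded one held 6844 peaks, were regions on dm6, called in each replicate and on pooled reads against a shared control, per the files' accompanying text. For aligner and peak caller, names and versions were not given in the sources used here. Chromatin was sheared to 200 to 800 bp, per the labels. Each region has a signal value, deposited by the authors, whose scale differs between lists. It was divided by the median of the replicate's list of 30000 regions, and pooled signal was used to rank peaks and, in its own scale, to compare peaks found in both replicates with the rest. Read depth is unknown.

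Summits were placed on Ensembl release 115 TSSs without transposable elements and pseudogenes, and matched between lists within 100 bp. Arm lengths were checked against the RefSeq genome, and motifs were matched exactly. The functions were tested on simulated data. The software was Python 3.11.15, numpy 2.4.6, pandas 2.3.3, scipy 1.17.1 and matplotlib 3.10.9. The members, the 21 gene lists and the 13 motifs were chosen with earlier results of these data known. Genes named were the 12 of highest mean percentile over both replicates, up to 2 for each motif, up to 3 for each list, those at both ends of the distance range and those with most peaks. AlaRS, RpS29 and Rab1 in the account of gaps, and the non-coding genes, were picked after their values were seen. Sequences on 2R or with over 30 UTR bases were not printed, and Jwa, outside that naming rule, is the strongest DRE promoter among the rest. Of the 12 strongest, 1 is not reported here. Alternatives were a stricter set, single replicates, other distances and other windows.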

Additional observations from a re-analysis of the deposited data

How the results depend on the processing

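Alternatives were run one at a time on the counts, shares and medians of the upstream peaks. The comparisons between distances, classes, promoters with and without a peak and gene lists were not rerun under them. In the stronger 50% of all peaks the upstream peaks numbered 1073, their median position was -83 bp, their signal was 4.45 times the list median, 59.2% had a tandem neighbour and 7.20% of protein-coding genes had one. The lower counts follow from fewer peaks, and the cause of the other shifts was not tested. From each replicate alone there were 1819 to 1984 upstream peaks, and the gene share was 11.7% to 13.1%. Of the 1969 upstream peaks of the thresholded set, 96.9% to 97.3% were matched in a single replicate. The matched summits had a median position of -76 to -72 bp, which the match within 100 bp holds close to that of the set. The share matched in both was 77.6% within 50 bp and 98.2% within 200 bp. Within 100 bp of the summit, in place of the promoter window, the DRE was in 11.2% and the M1BP core in 7.87%. Leaving out TSS pairs within 1000 bp left 1608 upstream peaks and gave a gene share of 10.5%. The other settings left each share, median and signal within its interval or spread. For the signal from a single replicate this could not come out otherwise, because the spread is that between the replicates' own medians. No paired analysis was possible because there is 1 group. Depth is unknown and there are 2 replicates, so small differences between groups of peaks are not resolved.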

Other observations

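Non-coding genes had 79 of the upstream peaks. Long non-coding and other ncRNA genes had 58, with a median summit at -166.5 bp, farther from the TSS than the -70 bp of protein-coding genes. The strongest were those of lncRNA:CR44339, at 18.7 times the list median in replicate 1 and 18.8 in replicate 3, and of lncRNA:CR31044, at 15.5 and 21.2. The share of ncRNA genes with an upstream peak was 1.69% of 3261, and their median signal was 3.45 and 3.69.

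The tRNA, snoRNA and snRNA genes had fewer peaks but larger shares than the ncRNA genes, on small counts. Of 269 snoRNA genes 6 had a peak (2.23%). Of 290 tRNA genes 11 had a peak (3.79%), with tRNA:Thr-AGT-1-4 at 4.92 and 5.49, although that summit lay over another gene of the same strand. Of 32 snRNA genes, which make the RNAs of the spliceosome, 4 had one (12.5%). Among them snRNA:U6:96Ac had 4.52 and 5.47, and snRNA:U1:95Ca had 4.71 and 4.00. Copies of these genes are near-identical, and how reads were shared between copies is not given in the sources used here. At the ends of the allowed range, Rnp4F had its summit at the TSS itself, with 3.34 and 5.16, and the microRNA gene mir-314 had it at -250 bp, with 3.39 and 3.88. Of the 1969 upstream peaks 37 (1.88%) also had a single-direction peak downstream of the same TSS. Over all protein-coding genes 4.14% had a downstream peak at any of their TSSs. That is a share of genes and cannot be set against a share of peaks at the same TSS. Upstream peaks were 404 bp wide at the median, as were those of each other class. Another peak lay within 500 bp for 4.98% of upstream peaks. That share was 8.37% for downstream, 7.99% for divergent and 6.90% for outside peaks. Whether 2 summits around 1 TSS would be called apart was not tested.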
